A study of Rattus norvegicus with 6 samples.

Results

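The transient receptor potential (TRP) channel genes Trpv1 (gene ID 83810), Trpv2 (29465), Trpv4 (66026), Trpa1 (312896), Trpm8 (171384) and Trpc5 (140933) were followed in RNA sequencing of rat dorsal root ganglia. They were picked by gene symbol as channels of heat, cold and irritants, and all 6 were found among the 22864 genes of the count table. All 6 also passed the filter on low counts that left 15531 genes for testing.

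TRP channels are cation channels that open to temperature, chemicals or stretch and let sodium and calcium into the cell. In the endings of sensory neurons that current starts the nerve signal, so these channels are the molecular sensors of burning, cooling and irritant pain. Trpv1 is the capsaicin and noxious heat receptor, Trpa1 the receptor of mustard oil and reactive aldehydes, and Trpm8 the menthol and cool receptor. Inflammatory mediators, TNF among them, are known to sensitise Trpv1 and Trpa1 by phosphorylation and trafficking as well as by expression.

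The ganglia were L4 to L6 of the injured side, which hold the cell bodies of hind limb sensory neurons, taken on day 7 from rats of wild-type genotype, with a ring size given for males. In the CPIP (chronic post-ischaemia pain) groups, under pentobarbital, an O-ring held the hind limb tied close to the ankle over 3 h, and Sham+Veh rats had the anaesthesia alone. Every group received daily intrathecal injections that began after 2 days, of vehicle (Sham+Veh and CPIP+Veh) or of etanercept, a TNF-binding fusion protein (CPIP+ETA). There were 2 libraries per group. Whether these are different animals, or pools, is not stated in the labels, so each p-value reflects the spread among libraries only, and that spread may be technical. Neither age nor strain is stated in the sources used here.

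Library totals lay between 18284891 and 19981081 counts. Spearman correlations over tested genes were 0.9921 to 0.9931 within groups and 0.9909 to 0.9933 between them. The tissue label held: 12 pan-neuronal markers summed to 10200 to 11100 CPM (reads relative to the TMM-scaled library total) and 14 nociceptor markers to 6900 to 7290 CPM. Spinal cord markers summed to 5.95 to 8.76 CPM, with 1 or 2 of the 4 at 0 in each library. Summed markers of some other cells differed in range between groups. The 5 pericyte and smooth muscle markers summed to 161 and 165 CPM in Sham+Veh and 113 to 139 in the CPIP libraries, the 7 endothelial markers to 162 and 175 against 127 to 147, and the 5 fibroblast markers to 2610 and 2800 against 1670 to 2550. Red blood cell markers summed to 155 and 261 CPM in CPIP+ETA and 22.4 to 97.6 elsewhere, skeletal muscle markers to 7.96 to 45.4 and satellite glia markers to 4550 to 5130. Their part in the channel values was not tested. In bulk tissue, fewer cells of a type and less RNA per cell cannot be told apart.

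In CPIP+Veh none of the 6 channels passed the test against Sham+Veh. Their log2 fold changes against Sham+Veh ran from -0.30 for Trpc5 to 0.13 for Trpa1, with a median of 0.02 beside 0.00 over all genes tested. Of these, 4 lay above 0 (49% of all genes), but Trpv1, Trpv2 and Trpv4 lay below 0 when libraries were scaled to pan-neuronal markers. That scaling moved the median of all genes to -0.078, and its 12 markers did not move together. In CPIP+Veh 7 of them lay above Sham+Veh and 5 below, from 0.15 for Tubb3 and Eno2 to -0.19 for Rbfox3. edgeR's quasi-likelihood test called 0 of the 6 at a Benjamini-Hochberg adjusted p under 0.05, where it called 0.0193% of all genes. At an unadjusted p under 0.05 it had 0 of the 6, against 4.94% of all genes, while 0 were also called by DESeq2 and by limma-voom. The 2 groups did not overlap for 1 channel, Trpv2, and for 37.1% of all genes.

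With etanercept none passed either. All 6 channels had a log2 fold change above 0 against CPIP+Veh, as had 49.6% of all genes. The values ran from 0.00 (Trpv2, which turned below 0 with upper-quartile scaling) to 0.20, with a median of 0.13 (0.00 over all genes). The 6 channels were read from the same libraries, so their signs are not independent. The 3 comparisons share libraries, so their values are not independent either. edgeR called 0 of the 6 and 0% of all genes. At an unadjusted p under 0.05 there were 0 of the 6 against 5.15% of all genes. By DESeq2 and by limma-voom, too, 0 of the 6 were called. The groups did not overlap for 2 channels, Trpv1 and Trpm8, against 32.6% of all genes. Set against Sham+Veh, CPIP+ETA gave 5 channels above 0 (49.3% of all genes) and 1 below, between -0.09 and 0.18. Here edgeR called 0 (0.0193% of all genes), and DESeq2 and limma-voom called 0. There 1 of the 6 had an unadjusted p under 0.05 (6.37% of all genes) and 2 did not overlap (35.7% of all genes).

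**Figure D1:**
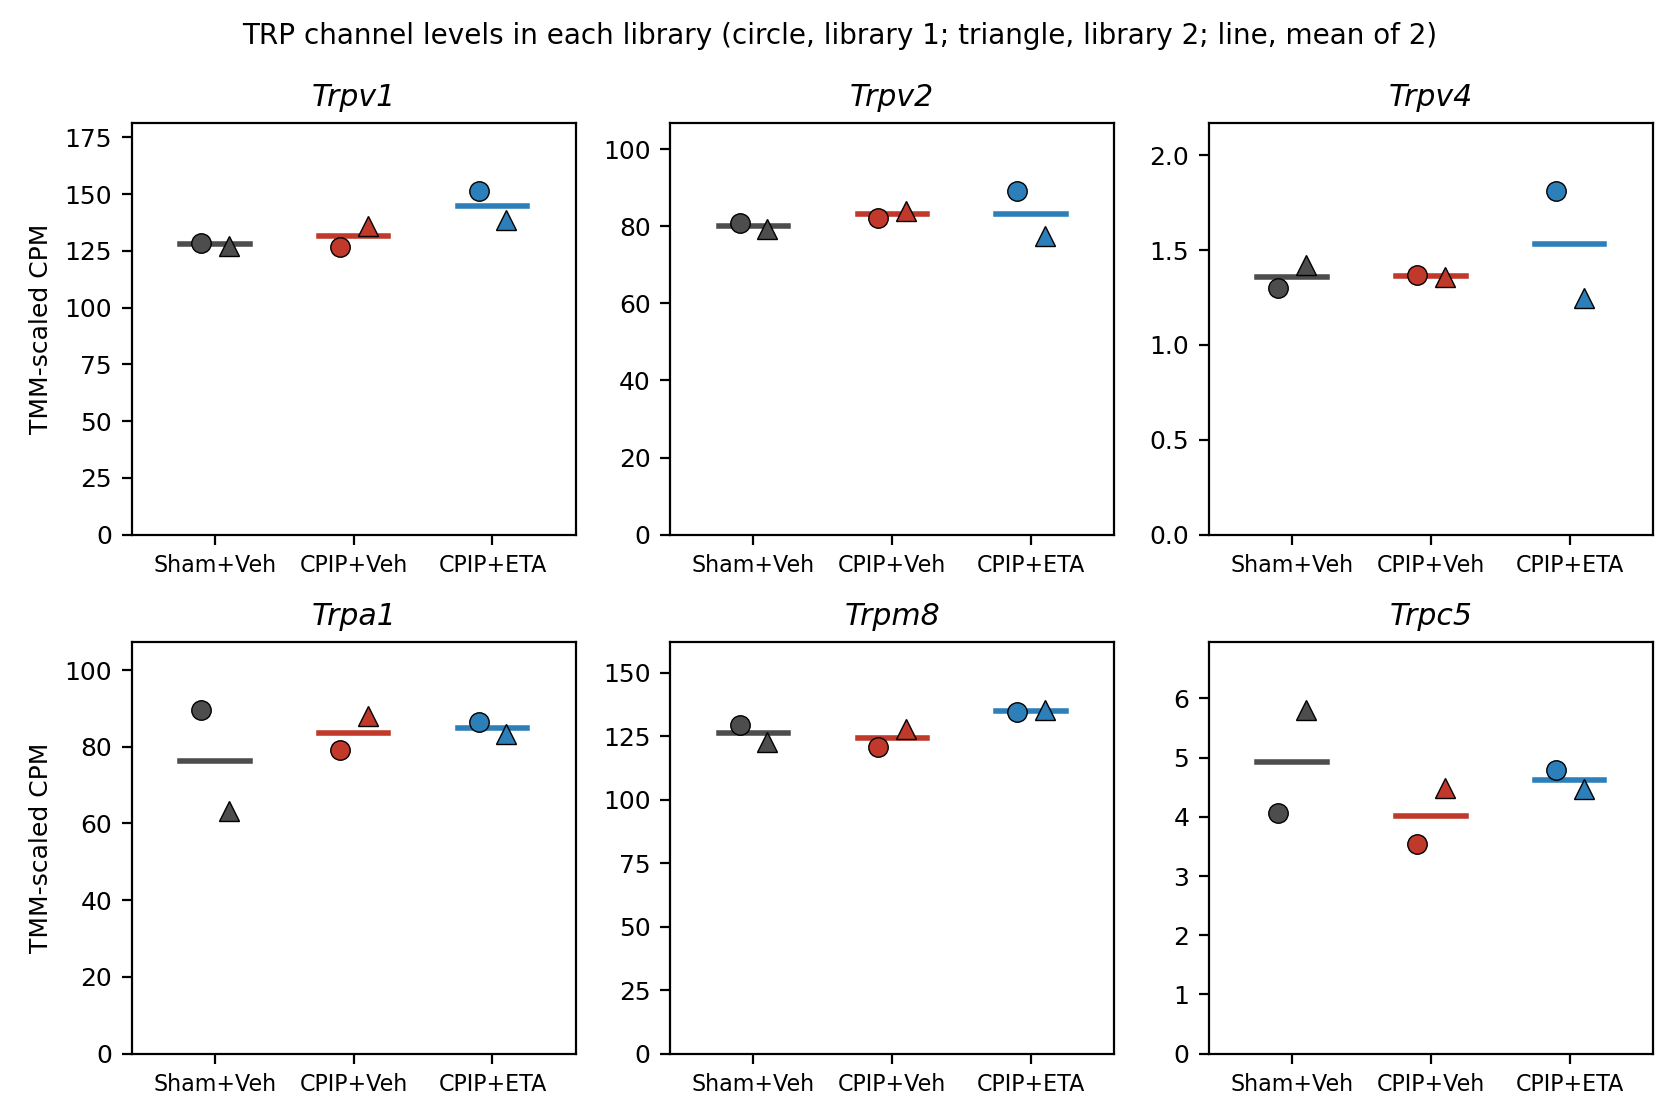
Level of each channel (TMM-scaled CPM, vertical axis from 0) in every library of the 3 groups. Circles and triangles are libraries 1 and 2 and the line is their mean. Trpv1, Trpv2 and Trpm8 stay within 1.19-fold over all 6 libraries, while the Sham+Veh libraries of Trpa1 lie 1.42-fold apart.

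For Trpv1, the heat and capsaicin receptor of nociceptors, the Sham+Veh libraries had 129 and 127 CPM. CPIP+Veh had 127 and 136 CPM, and CPIP+ETA had 151 and 138 CPM. The vehicle groups overlapped, and both CPIP+ETA libraries lay above all the others. Its log2 fold change was 0.04 (SE 0.065) for CPIP+Veh against Sham+Veh, and the 95% interval of the ratio ran from 0.922 to 1.14. For CPIP+ETA against CPIP+Veh it was 0.14 (SE 0.065; ratio 1.10, interval 0.99 to 1.23, edgeR adjusted p = 0.938). Against Sham+Veh it was 0.18 (SE 0.065; ratio 1.13, interval 1.02 to 1.26), the smallest p of any of these channels (unadjusted 0.0298), but rank 615 of 15531 genes and not called (edgeR adjusted p = 0.752).

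The CPIP+ETA libraries differed from each other in Trpv1 and in summed cell type markers. CPIP+ETA 1 had the highest Trpv1, Trpv2 and Trpv4 of all 6 libraries. The highest Trpm8 was in CPIP+ETA 2, the highest Trpa1 in Sham+Veh 1 and the highest Trpc5 in Sham+Veh 2. CPIP+ETA 1 also had the highest summed pan-neuronal markers (11100 CPM, 10200 to 10900 elsewhere). Its summed Schwann cell myelin markers were the lowest (9010 CPM, 11000 to 13700 elsewhere). Counted per 1000 pan-neuronal reads, Trpv1 was 12.4 and 12.5 in the Sham+Veh libraries, 11.7 and 12.6 with CPIP+Veh, then 13.6 and 13.5 with CPIP+ETA. The 12 markers behind that scale went both ways, with 8 above and 4 below Sham+Veh in CPIP+ETA. On that scale too the CPIP+ETA libraries lay above the rest. The fit with pan-neuronal scaling gave 0.12 (SE 0.061, unadjusted p = 0.0947, edgeR adjusted p = 0.765) against Sham+Veh, so that the unadjusted p no longer lay under 0.05. Against CPIP+Veh it gave 0.15 (SE 0.061, unadjusted p = 0.0406, edgeR adjusted p = 0.997). Without CPIP+ETA 1 the log2 fold change against CPIP+Veh was 0.08, and without CPIP+ETA 2 it was 0.20. Of the 14 nociceptor markers, 9 lay above CPIP+Veh with etanercept and 5 below (median 0.06), from 0.17 for Mrgprd to -0.20 for Tac1. For 8 of them these groups did not overlap, 6 higher and 2 lower (32.6% of all genes in either direction). The part of tissue makeup in the Trpv1 values was not tested.

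Trpm8, the cool and menthol receptor of a separate small class of neurons, was as steady. Sham+Veh had 129 and 123 CPM, CPIP+Veh had 121 and 128, CPIP+ETA had 134 and 135. The vehicle groups overlapped, and CPIP+ETA lay above both on this scale. Per 1000 pan-neuronal reads CPIP+ETA, at 12.1 and 13.1, overlapped Sham+Veh, at 12.5 and 12.0, and lay above CPIP+Veh, at 11.1 and 11.9. The log2 fold change was -0.02 (SE 0.056) in CPIP+Veh against Sham+Veh, with an interval of the ratio from 0.898 to 1.08. Etanercept against vehicle gave 0.12 (SE 0.056; ratio interval 0.989 to 1.19), and against Sham+Veh 0.10 (SE 0.056), or 0.04 with pan-neuronal scaling. None was called, with edgeR adjusted p-values of 0.985, 0.938 and 0.84.

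Trpa1, the irritant receptor found mostly within the Trpv1 neurons, had a log2 fold change that changed sign with the control library kept. Sham+Veh had 89.5 and 63.2 CPM, CPIP+Veh had 79.1 and 87.9, CPIP+ETA had 86.4 and 83.3. Sham+Veh 1 was the highest of the 6 libraries and Sham+Veh 2 the lowest, so that every CPIP value fell between the 2 controls. The counts behind these were 1653 (95% counting interval 1570 to 1730) and 1155 (1090 to 1220). The gap between the Sham+Veh libraries was 0.50 on the log2 scale. Among the 4457 genes with a mean of at least 50 CPM the median gap was 0.06, and 25 genes (0.561%), Trpa1 included, had one this wide.

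With all libraries the log2 fold change of Trpa1 was 0.13 (SE 0.15) for CPIP+Veh against Sham+Veh, with a ratio interval from 0.85 to 1.41 (edgeR adjusted p = 0.959). Against Sham+Veh 2 alone (Sham+Veh 1 left out) it was 0.41 (SE 0.092). Against Sham+Veh 1 alone (Sham+Veh 2 left out) it was -0.10 (SE 0.089). For CPIP+ETA the same choice turned 0.15 (SE 0.15) into 0.43 or -0.07. None of these was called by edgeR (adjusted p = 1 and 0.998 for CPIP+Veh, 0.802 and 0.983 for CPIP+ETA). In these fits the spread of the remaining control comes from the other groups. Between the CPIP groups, where the controls do not enter the ratio, Trpa1 had 0.02 (SE 0.15).

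**Figure D2:**
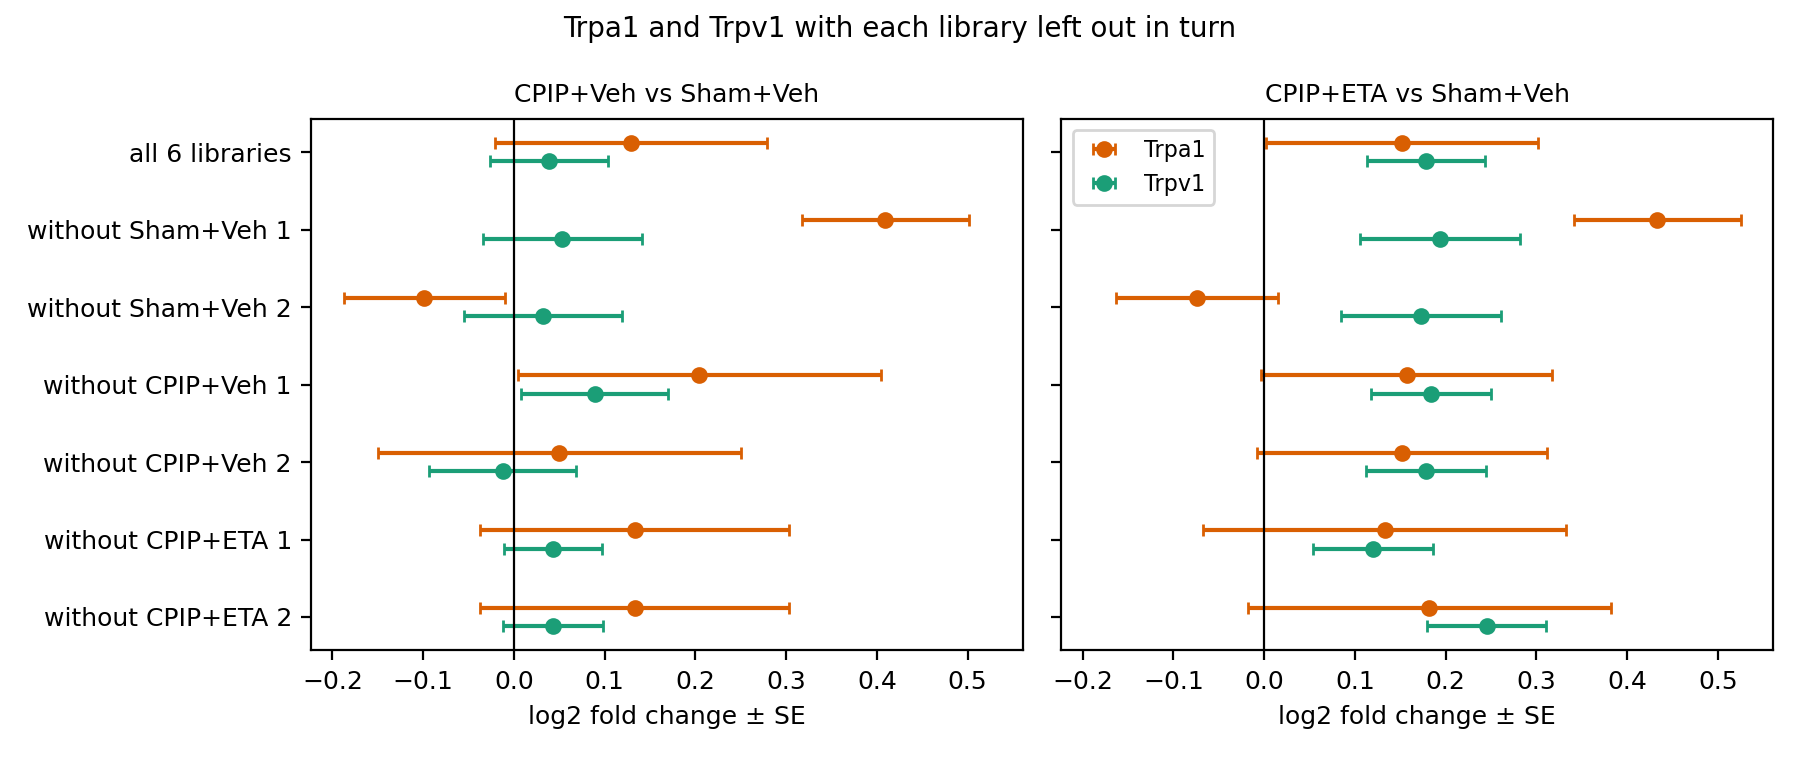
Log2 fold change against Sham+Veh (horizontal axis, bars are SE) of Trpa1 and Trpv1 with all 6 libraries and with each left out, for CPIP+Veh (left) and CPIP+ETA (right). Trpa1 moves from 0.41 to -0.10 on the left according to which control stays, while Trpv1 stays between -0.01 and 0.09 there.

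Trpv2, a relative of Trpv1 found in larger sensory neurons and in macrophages, stood at 80.8 and 79.3 CPM in Sham+Veh. CPIP+Veh had 82.2 and 84.0 CPM and CPIP+ETA 89.1 and 77.4. Both CPIP+Veh libraries lay just above the controls, and the CPIP+ETA libraries were the highest and the lowest of all. The log2 fold changes were 0.05 (SE 0.075; ratio interval 0.916 to 1.18) for CPIP+Veh against Sham+Veh, 0.00 (SE 0.075) for CPIP+ETA against CPIP+Veh and 0.06 (SE 0.076) for CPIP+ETA against Sham+Veh. The 8 macrophage markers summed to 131 to 142 CPM in Sham+Veh, 127 to 145 in CPIP+Veh and 172 to 177 in CPIP+ETA. They did not move together: with etanercept 5 lay above CPIP+Veh and 3 below, from 1.65 for Cd163 to -0.49 for Cx3cr1. The part of these markers in Trpv2 was not tested.

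Trpv4, a channel opened by warmth and cell swelling that is known from many non-neuronal cells, and Trpc5, a cold-sensitive channel of the canonical subfamily, had the fewest reads and the widest intervals of the 6. Sham+Veh had 24 and 26 Trpv4 reads, CPIP+Veh 27 and 27, CPIP+ETA 36 and 23, or 1.25 to 1.81 CPM. The counting interval of the lowest value (14.6 to 34.5 reads) and that of the highest (25.2 to 49.8) overlap. Its log2 fold changes of 0.00, 0.17 and 0.17 had an SE of 0.32, and the ratio of CPIP+Veh to Sham+Veh had an interval from 0.589 to 1.71.

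Sham+Veh had 75 and 106 Trpc5 reads, CPIP+Veh 70 and 89, CPIP+ETA 95 and 82, or 3.54 to 5.80 CPM. CPIP+Veh and Sham+Veh overlapped. The log2 fold change of -0.30 (SE 0.23) between them had a ratio interval from 0.557 to 1.19. Leaving out Sham+Veh 1 gave -0.52, and leaving out Sham+Veh 2 gave -0.01. CPIP+ETA against CPIP+Veh gave 0.20 (SE 0.23) and against Sham+Veh -0.09 (SE 0.23). The Sham+Veh libraries of Trpc5 lay 1.43-fold apart, with a CV of 24.9% against a counting CV of 10.5%.

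**Figure D3:**
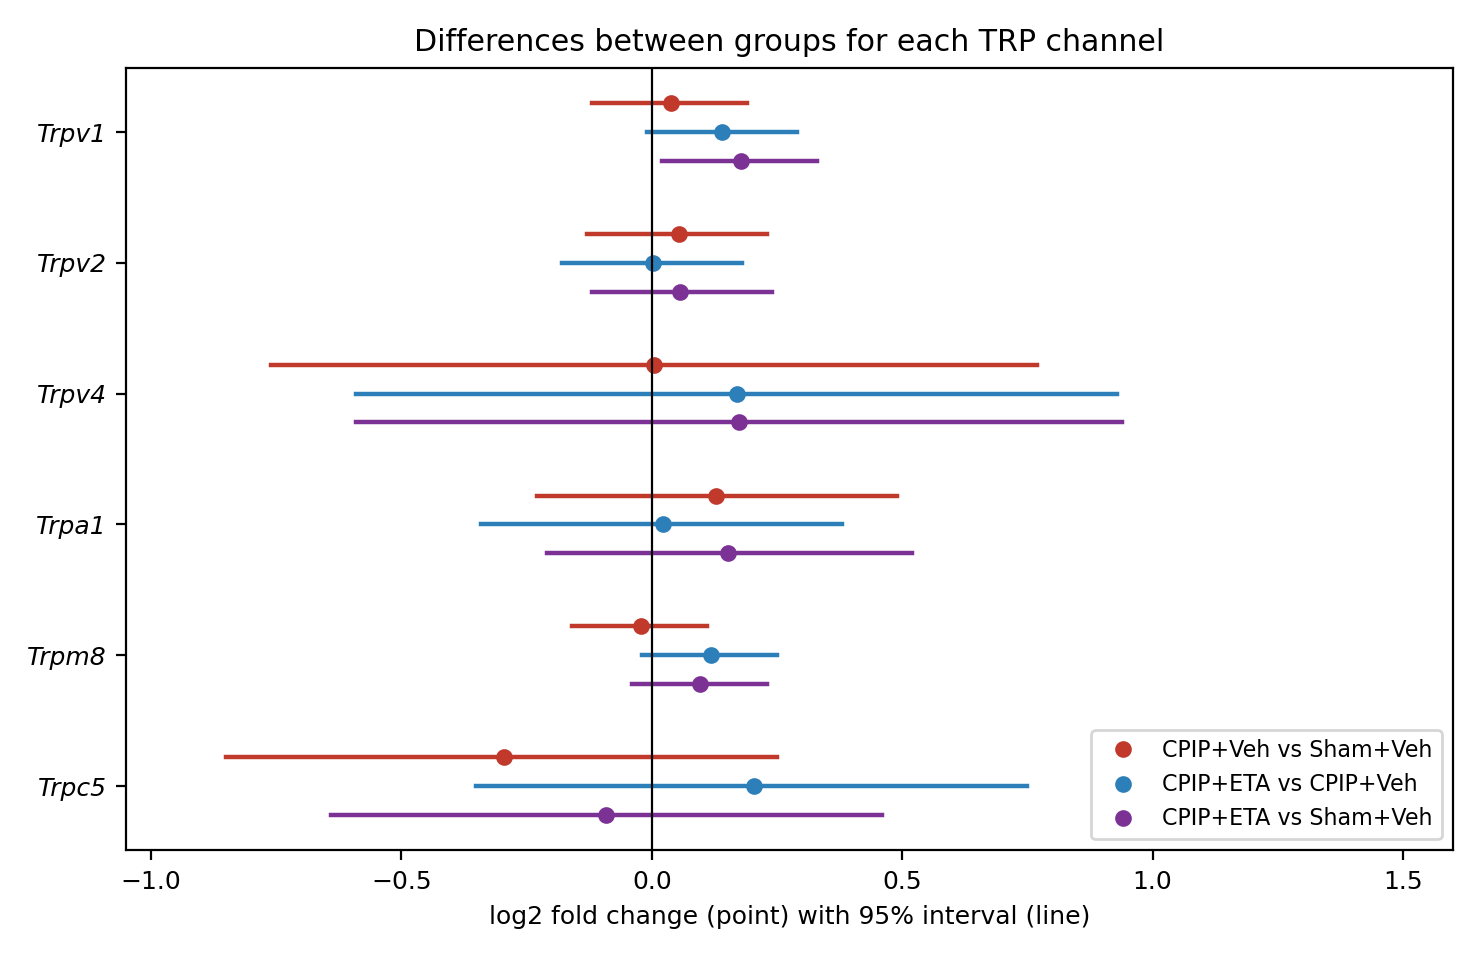
Log2 fold change of each channel (point) with its 95% interval (line) in the 3 comparisons; 0 is no difference. The intervals of Trpv1, Trpv2 and Trpm8 are narrow and those of Trpv4 and Trpc5 wide, and 1 of the 18, Trpv1 in CPIP+ETA vs Sham+Veh, does not include 0.

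Levels of different channels were not ranked against each other, since CPM is not corrected for transcript length and no transcript lengths were used here. In a RefSeq gene table of the later GRCr8 build, used for neighbours only, Trpv1 lies beside Trpv3. Trpm8 overlaps Hjurp there, at 3.19 to 4.19 CPM, and Trpc5 overlaps Alg13, at 9.52 to 11.6 CPM, and Trpc5os, which is blank in the table. Trpv2 overlaps Snord49a, Snord49b, Snord65 and a protein-coding gene without a symbol of its own, for which no levels were used here. Only whole gene spans were compared, not exons, and whether counting used strand is not stated in the labels. Whether reads of these overlapping genes were kept apart is therefore not known.

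The channels varied unevenly with each other across the 6 libraries. Over their 15 pairs, Pearson correlations of log2 CPM ran from -0.60 (Trpa1 with Trpc5) to 0.86 (Trpv2 with Trpv4), with 13 above 0; Trpv1 had 0.79 with Trpm8 and 0.45 with Trpa1. These are descriptions over 6 points that share library depth and tissue makeup. Among 13311 other genes, those most like Trpv1 were Sgip1 (0.985) and Pias4 (0.979), and those most like Trpm8 were Pnpla2 (0.982) and Rnf103 (0.976). For Trpa1 they were Eif3g (0.983) and Slc10a4 (0.979), for Trpv2 Tcf20 (0.991) and Pfkp (0.989), for Trpv4 Synrg (0.996) and Apba1 (0.995), and for Trpc5 Zdhhc1 (0.996) and Tbc1d17 (0.985). Between 9 and 40 genes (0.0676% to 0.301% of the 13311) reached 0.95 with each channel. The named genes are the top of that ranking on 6 points, and no test was run on them.

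The rest of the TRP family held no call either. All 22 other family members were in the table and 15 were tested. The remaining 7, Trpc2, Trpc7, Trpm1, Trpv5, Trpv6, Pkd2l1 and Mcoln3, had at most 10 reads in any library. In CPIP+Veh 9 lay above Sham+Veh and 6 below (median 0.06), and with etanercept 8 lay above CPIP+Veh and 7 below (median 0.00). In each comparison edgeR, DESeq2 and limma-voom called 0, and 0 reached an unadjusted p under 0.05. Of all genes, edgeR called 0.0193% in CPIP+Veh against Sham+Veh, 0% with etanercept against vehicle and 0.0193% in CPIP+ETA against Sham+Veh. Those with an unadjusted p under 0.05 made up 4.94%, 5.15% and 6.37%. The lowest p in CPIP+Veh belonged to Trpc4, a relative of Trpc5 (log2 fold change 0.43, SE 0.30), to the lysosomal channel Mcoln1 (-0.07, SE 0.053) and to Trpm3, a further noxious heat sensor (0.10, SE 0.083). With etanercept Trpc4 had -0.29 (SE 0.30) and Trpm5 -0.39 (SE 0.41).

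Receptors that sensitise these channels were tested next, 16 of the 18 listed. In CPIP+Veh 5 lay above and 11 below Sham+Veh (median -0.05), and with etanercept 8 and 8 (median 0.00). By edgeR, DESeq2 and limma-voom 0 were called, where edgeR called 0.0193% and 0% of all genes. At an unadjusted p under 0.05 edgeR had 0 and 0, beside 4.94% and 5.15% of all genes. In CPIP+Veh the cytokine receptor subunit Il6st had -0.06 (SE 0.051) and the lysophosphatidic acid receptor Lpar1 -0.07 (SE 0.075). With etanercept the lowest p belonged to the histamine receptor Hrh1 (0.29) and to the TNF receptors Tnfrsf1b (0.34) and Tnfrsf1a (-0.07). Tnfrsf1a, the target of TNF on many cells, stood at 47.2 to 51.6 CPM over all 6 libraries.

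Of 24 kinases, scaffolds and binding partners 23 were tested. They lay 11 above and 12 below Sham+Veh in CPIP+Veh (median -0.01), and 16 above and 7 below CPIP+Veh with etanercept (median 0.03), with 0 called by edgeR, DESeq2 or limma-voom. At an unadjusted p under 0.05 there were 0 and 1, beside 4.94% and 5.15% of all genes. In CPIP+Veh the lowest p were those of Mapk14, the p38 kinase (-0.08), the protein kinase A subunit Prkacb (0.07) and Prkce, a kinase that phosphorylates Trpv1 (-0.10). Camk2a, a calcium-dependent kinase, had 42.0 and 35.8 CPM with CPIP+ETA. CPIP+Veh had 33.7 and 29.5 CPM, Sham+Veh 33.0 and 30.0, all below. Of all genes, 32.6% did not overlap between CPIP+ETA and CPIP+Veh, and 35.7% did not between CPIP+ETA and Sham+Veh. The log2 fold change of Camk2a with etanercept was 0.30 (SE 0.11, edgeR adjusted p = 0.938). Next by p came Plcb3 (0.11) and the calcineurin subunit Ppp3ca (-0.09). Akap5, the scaffold that holds kinases at Trpv1, had the widest range of this list and is named for that after its values were seen. On 2 to 14 reads per library, its log2 fold changes were -0.79 (SE 0.92) in CPIP+Veh and 1.47 (SE 0.87) with etanercept.

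Enzymes that make or break lipid ligands of the channels held the lowest p of these lists in CPIP+Veh. All 11 were tested, with 8 above and 3 below Sham+Veh in CPIP+Veh (median 0.18) and 6 above and 5 below CPIP+Veh with etanercept (median 0.05). edgeR, DESeq2 and limma-voom called 0. At an unadjusted p under 0.05 edgeR had 2 and 0 of the 11, beside 4.94% and 5.15% of all genes. Ptgs1, the constitutive cyclooxygenase of prostaglandin synthesis, had 7.64 and 7.39 CPM in the Sham+Veh libraries, 10.7 and 13.1 with CPIP+Veh, then 12.7 and 9.86 with CPIP+ETA. All 4 CPIP libraries lay above both controls, and the log2 fold change in CPIP+Veh was 0.66 (SE 0.17, edgeR adjusted p = 0.813). Of all genes, 37.1% did not overlap between CPIP+Veh and Sham+Veh, and 35.7% did not between CPIP+ETA and Sham+Veh. Dagla, which makes the endocannabinoid 2-AG, stood at 91.9 and 83.4 CPM in Sham+Veh and 78.0 and 77.6 in CPIP+Veh (-0.17, SE 0.064), and Mgll, which degrades it, had -0.17 (SE 0.10).

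With etanercept, CPIP+ETA 2 stood apart for 2 of the 3 lipid enzymes with the lowest p. Ephx2, an epoxide hydrolase, had 1.14 CPM there, while CPIP+ETA 1 had 6.50, and the other 4 libraries at 6.39 to 8.12. Ptgs2, the inducible cyclooxygenase, had 36 reads there, 4 from CPIP+ETA 1, and 7 to 11 elsewhere. Faah, which degrades anandamide, had -0.21 (SE 0.12).

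Other channels that respond to temperature or set firing threshold held no call. Of 11 tested, 3 lay above and 8 below Sham+Veh (median -0.08), and 9 lay above and 2 below CPIP+Veh with etanercept (median 0.08). These comparisons share the CPIP+Veh libraries. In both, edgeR, DESeq2 and limma-voom called 0, where edgeR called 0.0193% and 0% of all genes. An unadjusted p under 0.05 was reached by 0 in both, beside 4.94% and 5.15% of all genes. Grik2, a kainate receptor subunit described in mice as a cold sensor, had 139 and 217 reads in the Sham+Veh libraries, 304 and 233 with CPIP+Veh, then 298 and 299 with CPIP+ETA. Its log2 fold change was 0.48 (SE 0.23) in CPIP+Veh and 0.69 (SE 0.23) in CPIP+ETA against Sham+Veh (unadjusted p = 0.0201, edgeR adjusted p = 0.698). The potassium channel Kcna2, a brake on cold-sensitive neurons, had -0.12 (SE 0.064) in CPIP+Veh and 0.15 (SE 0.064) with etanercept. Scn10a, the nociceptor sodium channel, had -0.08 in CPIP+Veh, and with etanercept Kcna1 had 0.17 and the heat-sensitive potassium channel Kcnk2 -0.36.

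For scale, markers of axon injury were set beside the channels in the same libraries, a list known from earlier results of these data to differ here. All 9 tested markers lay above Sham+Veh in CPIP+Veh (median log2 fold change 2.00) and below CPIP+Veh with etanercept (median -1.20), and the 2 values share the CPIP+Veh libraries. edgeR called 0 of the 9 in either comparison. At an unadjusted p under 0.05 it had 9 and 5, beside 4.94% and 5.15% of all genes. DESeq2 called 3 of the 9 in CPIP+Veh (Vip, Npy and Ecel1), beside 49 of all 15531 genes, and 0 with etanercept, beside 21. The limma-voom test called 0 in both, beside 2 and 0 of all genes. The 10 listed markers, 9 of them tested, summed to 286 and 254 CPM in the Sham+Veh libraries. Their sums were 342 and 468 CPM with CPIP+Veh, then 268 and 313 with CPIP+ETA. Gap43 made up most of each sum, with 267 and 237, 295 and 344, then 248 and 259 CPM. The sums therefore say little about the other markers. In CPIP+ETA against Sham+Veh, 8 of the 9 tested lay above 0 and 1 below (median log2 fold change 0.998). There edgeR called 0 and had 1 at an unadjusted p under 0.05, beside 6.37% of all genes. CPIP+Veh 2, the library with the most injury marker RNA, had 136 CPM of Trpv1, 128 of Trpm8 and 87.9 of Trpa1. Only the CPIP+ETA libraries had more Trpv1, and only Sham+Veh 1 had more Trpa1. For Trpm8 the CPIP+ETA libraries and Sham+Veh 1 had more. Whether the channels vary with the injury markers was not tested. Without CPIP+Veh 2 the injury median was 1.31 in CPIP+Veh and -0.26 with etanercept.

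**Figure D4:**
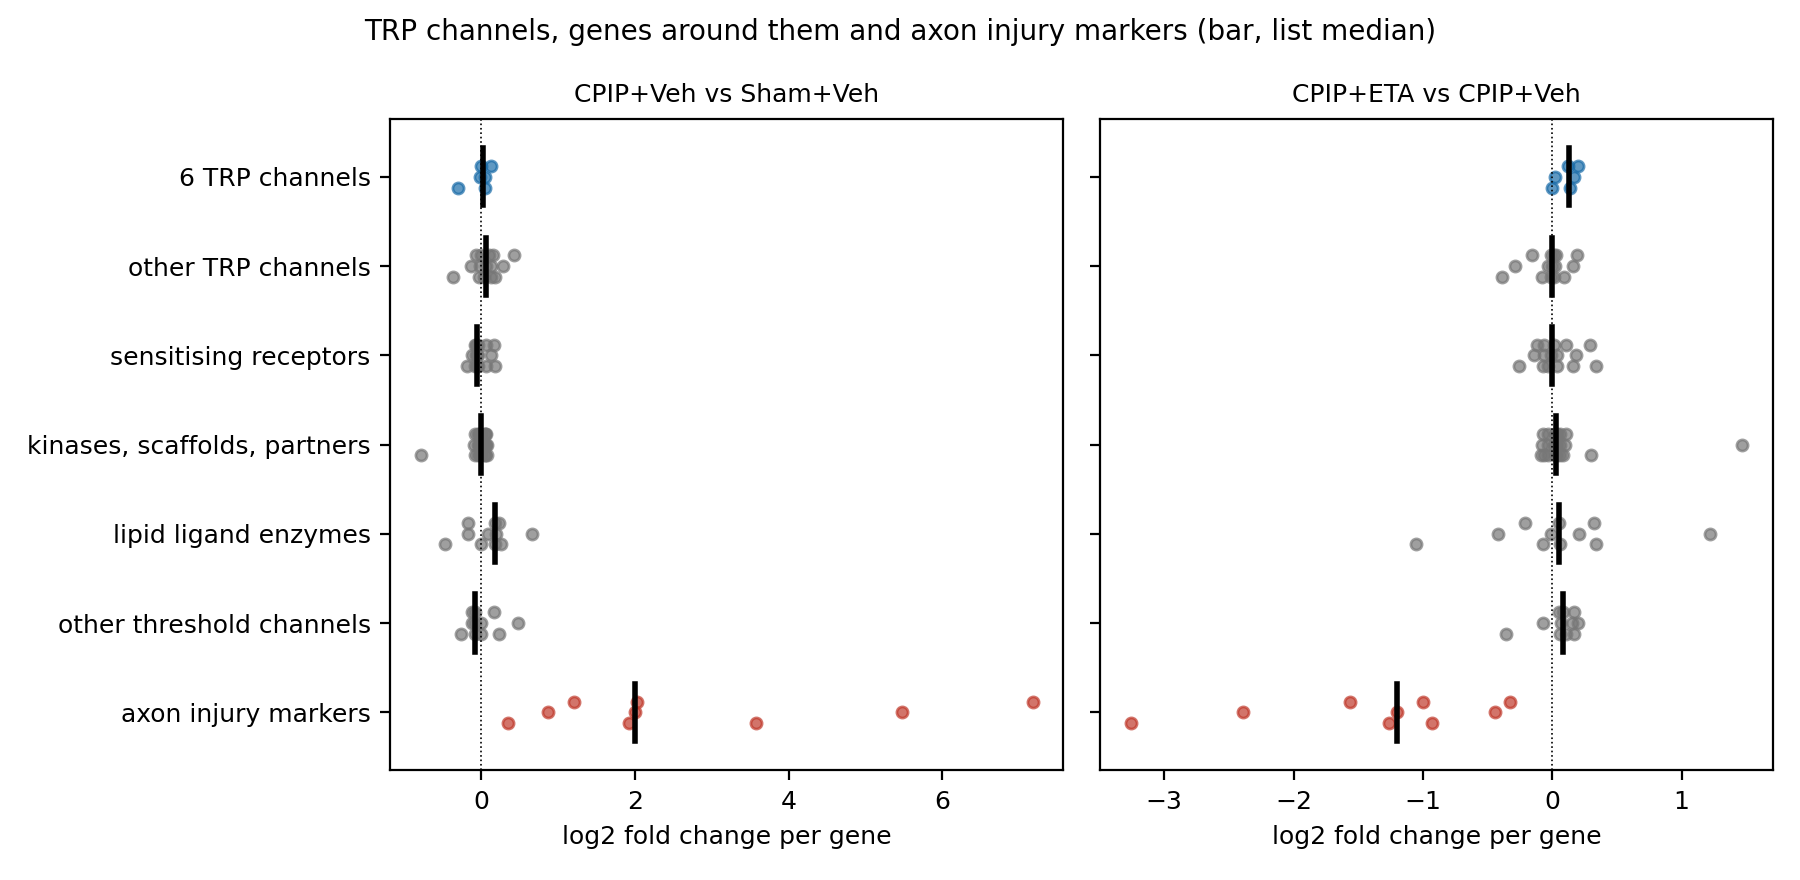
Log2 fold change of each gene (points, horizontal axis) and the list median (bar) for the 6 channels, 5 lists of genes around them and axon injury markers, in CPIP+Veh vs Sham+Veh (left) and CPIP+ETA vs CPIP+Veh (right); the scales of the panels differ. Channel points lie between -0.30 and 0.20, while injury marker medians are 2.00 and -1.20; the rightmost injury point, Vip, rests on 1 read in Sham+Veh.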

How the data were processed

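Bulk RNA sequencing of 6 libraries in 3 groups was used, each column of the deposited table being matched to its library by title. The values are expected counts as deposited by the authors (estimated reads per gene; 32.7% were whole among genes with a value), and 2907 genes blank throughout were read as 0. Per the labels' protocols, RNA had passed an integrity check and was sequenced on a BGISEQ-500; the submitters' processing notes name the build Rnor_6.0. The aligner, the counter and its annotation are unstated in those sources.

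Counts were rounded to whole numbers and tested with edgeR 4.0.16 in R 4.3.3: filterByExpr by group (minimum count 10, minimum total 15), TMM scaling, glmQLFit and glmQLFTest with group as the only term over all 6 libraries (3 residual and 3.64 prior degrees of freedom). The threshold was a Benjamini-Hochberg adjusted p of 0.05 over 15531 genes. The SE is the log2 fold change over the square root of F, and 95% intervals use the moderated degrees of freedom. Counting intervals are exact Poisson and cover counting error only. "Without" a library means that fit repeated on the other 5.

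The channels and gene lists were chosen with earlier results of these data known. Named were the 6 channels, the 3 genes of lowest p per list in each of the first 2 comparisons, and the 2 genes most correlated with each channel (official symbol, mean of at least 1 CPM, prior count 2); Akap5 and details of Grik2 in CPIP+ETA were added once their values had been seen. Of the genes this rule names, 2 are not reported here. The alternatives tried were RLE, upper-quartile, library-total and pan-neuronal scaling, DESeq2 1.42.0, limma-voom (limma 3.58.1), a filter of 1 CPM in 2 libraries or none, fits of the 2 compared groups alone, title number as a block, and each library left out. The procedure was tested on simulated counts with known changes, all larger than the channel differences estimated here. That test does not show whether differences as small as those of the channels could be detected. Figures used matplotlib 3.10.9.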

Additional observations from a re-analysis of the deposited data

How the results depend on the processing

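No channel was called under any alternative: the lowest adjusted p was 0.705 over 180 values from 10 settings and 0.354 over 108 values with 1 library left out. Of those values 174 and 94 kept the direction reported. Trpv2 with etanercept against vehicle was -0.00736 under upper-quartile scaling, and Trpv4 in CPIP+Veh was -0.00152 with library totals alone. Scaled to pan-neuronal markers, CPIP+Veh gave Trpv1 -0.0357, Trpv2 -0.0202 and Trpv4 -0.071, and CPIP+ETA against Sham+Veh gave Trpv2 -0.00411; this scaling moved the median of all genes to -0.078, 0.015 and -0.06 in the 3 comparisons. With 1 library left out, CPIP+Veh against Sham+Veh ranged over -0.0125 to 0.089 for Trpv1, 0.04 to 0.07 for Trpv2, -0.0529 to 0.0715 for Trpv4, -0.10 to 0.41 for Trpa1, -0.0628 to 0.0253 for Trpm8 and -0.52 to -0.01 for Trpc5. CPIP+ETA against CPIP+Veh ranged over 0.08 to 0.20 (Trpv1), -0.10 to 0.10 (Trpv2), -0.12 to 0.41 (Trpv4), -0.047 to 0.10 (Trpa1), 0.08 to 0.16 (Trpm8) and 0.05 to 0.38 (Trpc5). CPIP+ETA against Sham+Veh ranged over 0.12 to 0.24, -0.0415 to 0.16, -0.11 to 0.42, -0.0741 to 0.43, 0.06 to 0.14 and -0.32 to 0.19 in the same order. Genes called over the whole table numbered 3, 0 and 3 for CPIP+Veh against Sham+Veh, CPIP+ETA against CPIP+Veh and CPIP+ETA against Sham+Veh. DESeq2 gave 49, 21 and 50; the last was 1 with limma-voom or with the 2 compared groups alone. Leaving out 1 library gave 1 to 3 calls, 0 throughout, and 1 to 2. The cause was not tested. With the title number as a replicate block, Trpv1 in CPIP+ETA against Sham+Veh was 0.178 (edgeR adjusted p = 0.705), the counts stayed 3, 0 and 3, and no call changed. The numbers share no stated origin: deviations of same-numbered libraries correlated at 0.035, -0.11 and 0.05. With 2 libraries per group, Trpv4 and Trpc5 had the fewest reads, and Trpa1 and Trpc5 the widest gaps between controls; what limits each estimate was not tested.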
